A study of Mus musculus with 20 samples.

Results

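The 2-cell embryo was compared with the G2 zygote in C57BL/6J mice, an inbred laboratory strain, across every gene of the authors' deposited table for this step. The comparison rested on 6 of the 20 samples of the series, 3 per stage. The labels call the 2-cell samples G2 2C embryos, that is 2-cell embryos in G2, so earlier 2-cell embryos are not covered. The table lists 24411 gene symbols, and 12839 of them, with mean counts down to 6.84, carried an adjusted p and are called tested here. Of the 8637 genes averaging at least 100 counts, on which most of the account below rests, 8300 were tested. The mean count is the authors' average normalized read count over all 12 C57BL/6J samples (MII eggs, G1 zygotes, G2 zygotes and 2-cell embryos, 3 samples each). Each sample was a batch of 10 to 15 eggs or embryos of wild-type, untreated C57BL/6J mice, read by Smart-seq2, which copies and amplifies RNA from its poly(A) tail. All stages descended from oocytes that resumed meiosis in culture for 12 h after dbcAMP, an inhibitor of maturation, was removed. Zygotes and 2-cell embryos came from fertilization in vitro and were grown in KSOM medium under 5% oxygen. A batch averages its embryos, so variation between single embryos and unequal timing within a batch are not seen. Whether the batches are of different females or were made on different days cannot be seen from the labels, and the p-values measure the spread between these samples, which may be partly technical. The tables used here hold no values per sample, so each gene is given by the authors' fold change with its SE and by an approximate mean level per stage in normalized counts, which has no error of its own. Below, a value after ± is an SE on the log2 scale, and a pair of levels is the G2 zygote first and the 2-cell embryo second.

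A newly fertilized mouse egg is at first run by RNA and protein that the oocyte stored before ovulation. A small burst of transcription starts in the zygote, and the main wave of zygotic genome activation follows in the 2-cell embryo, with a set of genes and retroviral elements that are on for a short time only. In the same interval stored maternal messages lose their poly(A) tails and are degraded. Because the assay primes from the poly(A) tail, a longer or shorter tail and more or less RNA cannot be told apart here, and neither can RNA per embryo, since counts are relative to each library's total.

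From the G2 zygote to the 2-cell embryo, 3214 of the 12839 tested genes rose (25%) and 3251 fell (25.3%) in the authors' deposited table, at an adjusted p under 0.05. Among genes averaging at least 100 counts, 2531 rose (30.5%), 2116 fell (25.5%) and 3653 were not called. In that set the median log2 fold change was 0.23, with quartiles of -1.76 and 2.22, and the median SE was 0.87. Changes were large: 1453 genes rose and 1293 fell by at least 3 on the log2 scale. With the fold changes turned into an approximate mean level per stage (normalized counts), the genes that rose went from 13.1% of the summed level of the G2 zygote to 64.0% of that of the 2-cell embryo, while the genes that fell went from 62.8% to 12.9%. The genes holding 50% of the summed level numbered 187 in the G2 zygote and 366 in the 2-cell embryo. Precision followed the mean count: the median SE was 0.46 for the 2797 tested genes averaging at least 1000 counts and 2.19 for the 4165 with a mean count of 10 to 100.

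**Figure D1:**
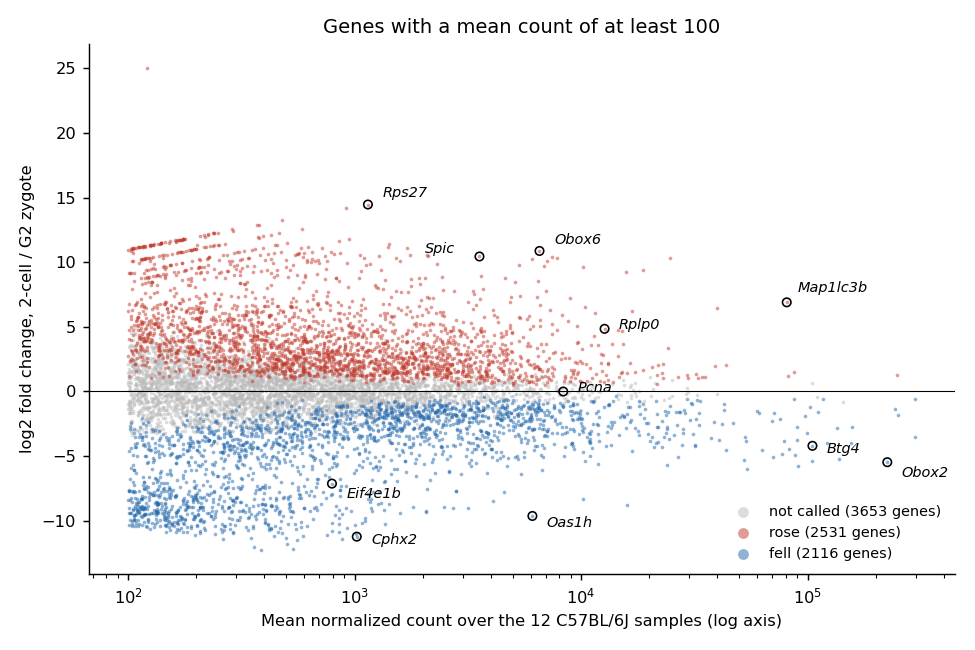
The log2 fold change from G2 zygote to 2-cell embryo (vertical axis) is plotted against the mean normalized count over 12 samples (horizontal log axis) for the 8300 tested genes averaging at least 100 counts, with genes that rose in red, genes that fell in blue and genes not called in grey. The scatter of uncalled genes narrows toward high counts, and a separate band of genes that fell lies below about -7, where the 2-cell level is near 0.

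Marker lists of other cells held at most 0.0272% of the summed level in each stage, though single members were higher. Of 20 cumulus and granulosa cell markers, the follicle cells that surround the oocyte, 8 were listed at 0, and the list held 0.00500% of the summed level in G2 zygotes and 0.00150% in 2-cell embryos. Its 3 tested members were Cyp19a1 (aromatase), which fell from a level of 809.7 to 4.05, Amhr2, which rose from 0.193 to 286, and Vcan, which went from 5.33 to 0.245 (adjusted p = 0.35). Of 20 sperm and testis markers 8 were tested, 1 rose and 3 fell, and the list held 0.0272% and 0.0131% of the summed level. Most of that was Odf2, a protein of sperm fibres and of centrosomes, which fell from 4771 to 1749 (-1.45 ± 0.33, adjusted p = 5.3e-05 in the authors' deposited table); without it the list held 0.00139% and 0.00440%. None of the 5 tested of 15 blood and oviduct markers passed the adjusted threshold, and the list held 0.00312% and 0.0251%, with the haemoglobin gene Hba-a1 at 81.1 and 3827 and without an adjusted p. The part of other cells in the results was not tested. Oocyte and transient 2-cell genes, described below, were abundant.

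The highest fold changes among genes with a level of at least 10 in both stages, predicted genes aside, belonged to Obox6, Spic, Cd63, Timd2, Ctsc, Vimp and Crxos. Obox6, a homeobox factor of a family named for its oocyte expression, went from a level of 13.9 in G2 zygotes to 26179 in 2-cell embryos, a log2 fold change of 10.88 ± 0.66 with an adjusted p of 9.4e-58 in the authors' deposited table. Spic, an Ets-family transcription factor, went from 10.2 to 14199 (10.45 ± 1.33, adjusted p = 6.6e-14). Crxos, another homeobox gene, rose from 25.3 to 28085. Several of the most increased genes encode membrane and organelle proteins. Cd63, a tetraspanin of late endosomes, rose from 22 to 29798. Timd2, a cell-surface receptor, rose from 74.9 to 98682, and Ctsc, the lysosomal protease cathepsin C, from 23.7 to 31217. Vimp, a selenoprotein of the endoplasmic reticulum, rose from 19.7 to 24295. A second group encodes metabolic enzymes. Gcsh, the H protein of the glycine cleavage system, rose by 9.67 ± 1.29. Prps1, which makes the sugar phosphate that all nucleotides are built on, rose by 9.25 ± 1.13, and Pdxk, the kinase that activates vitamin B6, by 8.92 ± 0.59. Nop16, a nucleolar protein, rose by 8.82 ± 0.85 and Klhl10, a ubiquitin ligase adaptor known from spermatids, by 8.81 ± 1.60. All 12 values lay between 8.81 and 10.88, and the adjusted p of each was at most 2.4e-07 in the authors' deposited table.

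Some of these genes were lowest in the G1 zygote. Prps1 had a level of 36.7 in MII eggs, 0.150 in G1 zygotes, 104 in G2 zygotes and 63246 in 2-cell embryos. Timd2 had levels of 52.3, 1.66 and 74.9 in the first 3 of these stages, Pdxk of 22.3, 1.36 and 29.8, and Ctsc of 18.2, 0.293 and 23.7, so that a dip in G1 lay between MII and G2 levels of like size. In the authors' deposited table of G2 against G1 zygotes, which shares the G2 samples, the adjusted p was 9.8e-07 for Prps1, 0.00044 for Timd2, 2.8e-05 for Pdxk and 0.0065 for Ctsc. Obox6, Spic, Vimp and Crxos did not pass that test (adjusted p = 0.083, 0.99, 0.61 and 0.98). For these 4 genes most of the gain lay in the step to the 2-cell embryo.

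**Figure D2:**
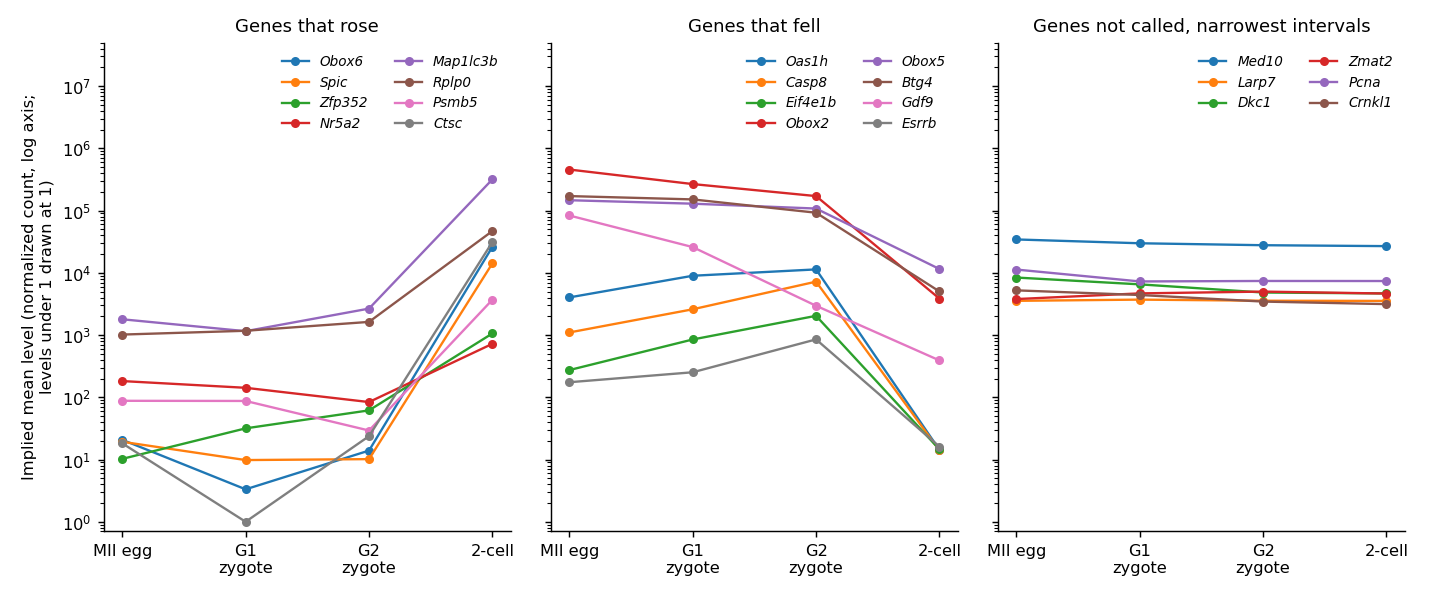
The approximate mean level per stage (normalized count, log axis, 3 samples per stage, levels under 1 drawn at 1) is plotted for genes that rose, genes that fell and the 6 uncalled genes with the narrowest intervals, from MII egg to 2-cell embryo. In the left panel Obox6 goes from 13.9 to 26179 in the last step, in the middle panel Oas1h goes from 11367 to 14.3, and in the right panel Pcna stays between 7281 and 7406 from the G1 zygote on.

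Another 163 genes averaging at least 100 counts rose from a G2 level under 1, where the fold change depends on the fit and only the levels are given. The highest 2-cell levels among them were 4581 for Rps27, a protein of the small ribosomal subunit, 3657 for the predicted gene Gm11758 and 2340 for B020004J07Rik. They were followed by the protein kinase gene Pkn3 at 1996, Lst1 at 1915, Cdkn3, a phosphatase of cyclin-dependent kinases, at 1854, Ubtd2 at 1811 and Tescl at 1786. The G2 level of these 8 genes lay between 0.194 and 0.697. Gm11758 is the least certain of them, with an adjusted p of 0.00051, against 5.3e-09 or lower for the others.

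Transient 2-cell genes, a list of loci known for a short peak at this stage, were counted next. Of 45 members listed, 39 were tested, 24 rose and none fell, beside 25% and 25.3% of all tested genes, and their median log2 fold change was 4.11 beside 0.17 over all tested genes. The Tdpoz genes, a cluster of speckle-type POZ proteins on chromosome 3, included Tdpoz5, which went from 3.72 to 1233, a log2 fold change of 8.37 ± 0.87 with an adjusted p of 2.2e-20. The predicted gene Gm10697 carries the same values, so they belong to the pair. Sp110, a nuclear body protein, was abundant already in the zygote and went from 5720 to 24327 (2.09 ± 0.23, adjusted p = 9.5e-19). Zfp352, a zinc finger gene that arose by retroposition, rose by 4.11 ± 0.62. Usp17lb, a deubiquitinase gene, rose from 2.07 to 5666, and Rfpl4b from 1.04 to 1118. The Zscan4 genes, which guard telomeres in embryonic stem cells, were mixed. Zscan4f rose from 273 to 2560 and Zscan4a from 263 to 1506. Zscan4d went from 92.3 to 580.0 and Zscan4c from 682 to 1241, which did not pass the test (adjusted p = 0.068 and 0.6). Dux, the homeobox factor that can switch on these loci in stem cells, had a level of 28.6 in the G2 zygote and 0.475 in the 2-cell embryo and was not called (adjusted p = 0.22). Tcstv1, Tcstv3 and Arg2 were not called either, with levels of 617, 878 and 3388 in 2-cell embryos against 1282, 617 and 2826 before. Most of these loci are near-identical copies in tandem, so reads may have been shared among members and each single value is uncertain.

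Upstream sequences of 3 of the genes named above are shown because they hold the 7-letter motif GGATTAA, or its reverse complement, that Obox and Otx homeobox proteins bind. They are the 250 bases before the start site (RefSeq, GRCm38.p6), written in the direction of transcription, with matches to any of 14 searched motifs in capitals (both strands, except the TATA box, forward only). Zfp352 (chr4:90218570-90218819, plus strand) held 7 matches, all in the reverse orientation, in a run of short repeats, the first starting 228 bases and the last 62 bases before the start. Sp110 (chr1:85603892-85604141, minus strand) held 2 and B020004J07Rik (chr4:101844023-101844272, minus strand) 1, beside 1 match to the Znf143 motif ACTACAA. Of the RefSeq start sites of a gene, the one with the most matches was taken. For Sp110 it is an internal start, since the gene spans chr1:85570735-85610850. The 50 bases just before the start were identical between Sp110 and B020004J07Rik.
Zfp352: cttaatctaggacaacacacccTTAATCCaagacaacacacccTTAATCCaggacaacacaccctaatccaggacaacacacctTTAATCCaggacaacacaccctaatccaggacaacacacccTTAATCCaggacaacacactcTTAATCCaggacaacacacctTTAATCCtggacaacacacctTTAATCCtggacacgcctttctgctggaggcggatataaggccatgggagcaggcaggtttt
Sp110: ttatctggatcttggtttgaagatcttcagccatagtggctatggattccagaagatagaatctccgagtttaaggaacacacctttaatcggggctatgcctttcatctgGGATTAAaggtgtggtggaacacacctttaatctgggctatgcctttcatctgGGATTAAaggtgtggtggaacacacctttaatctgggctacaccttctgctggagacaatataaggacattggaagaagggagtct
B020004J07Rik: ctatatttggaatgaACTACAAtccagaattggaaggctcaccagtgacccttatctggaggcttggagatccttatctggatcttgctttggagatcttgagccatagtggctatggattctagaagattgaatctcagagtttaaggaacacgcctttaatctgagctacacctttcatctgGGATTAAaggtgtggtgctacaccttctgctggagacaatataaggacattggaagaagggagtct

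Transcription factors named as candidates for genome activation moved both ways. Of 42 tested members 19 rose (45.2%) and 10 fell (23.8%), with a median log2 fold change of 1.48. Among all tested genes 25% rose and 25.3% fell. Members of the Obox family went in opposite directions: besides Obox6, Obox3 rose from 128 to 13452 (6.71 ± 0.58, adjusted p = 4.6e-29 in the authors' deposited table), while Obox1, Obox2, Obox5 and Obox7 fell. Obox2 went from 171330 to 3858, a log2 fold change of -5.47 ± 0.29 with an adjusted p of 8.0e-79. Obox1 went from 104020 to 2544, Obox5 from 108020 to 11533 and Obox7 from 20941 to 872. Copies of this family are alike in sequence, so reads could be assigned to the wrong member. Nr5a2, an orphan nuclear receptor, rose from 83.9 to 724, whereas Esrrb, another orphan receptor that recognizes almost the same site, fell from 853 to 16.1 (-5.72 ± 0.98, adjusted p = 3.5e-08). Dppa2 and Dppa4, small DNA-binding partners, rose by 2.92 ± 0.33 and 5.35 ± 0.80. Nfyb and Nfyc, subunits of the CCAAT factor NF-Y, rose by 2.44 ± 0.30 and 1.31 ± 0.40, and the subunit Nfya was not called (-0.52 ± 0.67). Yy1 rose from a level under 1 to 1455 and Zfx from 13.6 to 5402. Myc rose to 185 from under 1, while Max, its dimer partner, fell from 2388 to 66.4.

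Pluripotency and first-lineage factors were mostly low and split: 13 of 35 tested rose (37.1%) and 6 fell (17.1%), with a median of 0.44. Among all tested genes 25% rose and 25.3% fell. Dppa5a, an RNA-binding marker of pluripotent cells, went from 3159 to 38840 (3.62 ± 0.27, adjusted p = 3.8e-40). Nanog rose by 1.75 ± 0.46, Klf2 by 7.02 ± 1.62 and Tead4, a trophectoderm factor, by 5.68 ± 2.11. Klf5 and Klf9 rose from under 1 to 382 and 653. Gata3 fell from 1865 to 55.5 and Prdm1 from 259 to 0.246. Pou5f1, the gene of Oct4, went from 238 to 57 and was not called (adjusted p = 0.29).

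Genes of the cytosolic ribosome rose together. Of 81 tested cytosolic ribosomal protein genes 77 rose (95.1%) and none fell, beside 25% and 25.3% of all tested genes. Their median log2 fold change was 3.65, and their part of the summed level went from 0.463% to 4.56%. Rpl41 went from 1679 to 150020, a log2 fold change of 6.48 ± 0.29 with an adjusted p of 9.1e-104 in the authors' deposited table. Rplp0 and Rps26 rose by 4.85 ± 0.23 and 5.78 ± 0.30. The 4 uncalled genes, named after their values were seen, were Rps15a (0.12 ± 0.35), Rpl17 (0.34 ± 0.26), Rpl3 (2.28 ± 1.16) and Rpl22l1 (2.37 ± 2.14). Many ribosomal protein genes have processed pseudogenes, which can take or give reads. Factors that build ribosomes moved with them: 51 of 80 rose (63.75%) and 1 fell (1.25%), the median being 2.37. Nob1, the nuclease that trims the RNA of the small subunit, went from 37.1 to 2918, and Ebna1bp2 and Nop10 rose by 4.87 ± 0.44 and 3.06 ± 0.27. The member that fell was Nol10 (-2.49 ± 1.08, adjusted p = 0.042).

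Translation factors rose in 28 of 52 tested cases (53.8%) and fell in 4 (7.69%), with a median of 1.13. Among all tested genes 25% rose and 25.3% fell. Eif4e1b, the oocyte form, fell from 2040 to 14.6 (-7.13 ± 0.79, adjusted p = 6.9e-18), while Eif4e2 rose from 537 to 11548 and Eif4ebp1, which holds back cap-dependent initiation, from 2.05 to 2395. The other 3 that fell were Pabpc1l, Eif1b and Eif4a2. Of 20 tested aminoacyl-tRNA synthetase genes 8 rose (40%) and 3 fell (15%), the latter being Lars, Gars and Farsb. Aimp2, a scaffold of the synthetase complex, rose by 4.77 ± 0.63 and Lars fell from 457 to 13.8. Mitochondrial ribosomal proteins rose in 39 of 76 cases (51.3%) and fell in 6 (7.89%), the median being 1.48. Mrpl22 rose by 3.49 ± 0.32 and Mrpl43 by 3.68 ± 0.39.

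**Figure D3:**
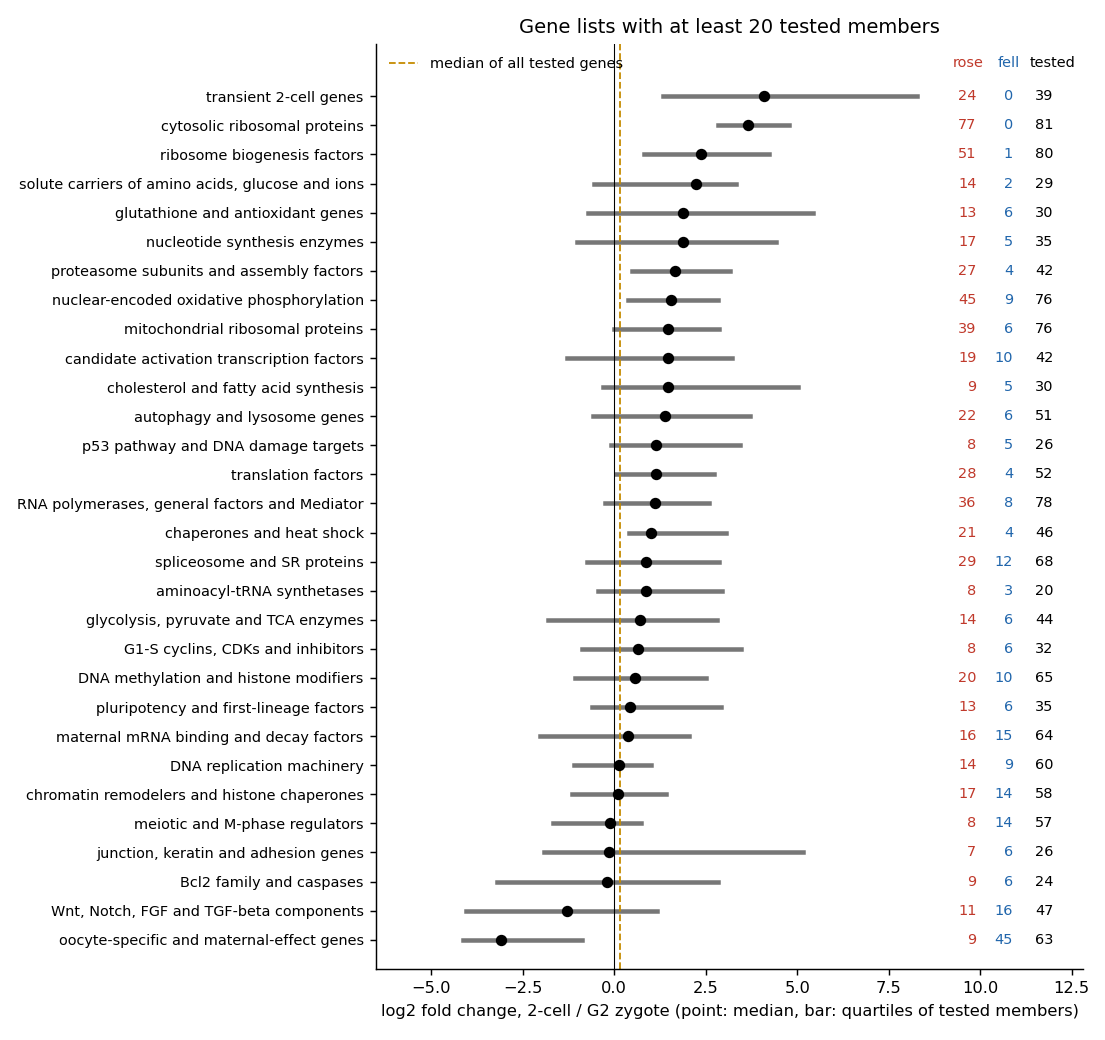
Each row is a gene list with at least 20 tested members, in order of its median log2 fold change from G2 zygote to 2-cell embryo (points), with the quartiles of its members as bars and the numbers that rose, fell and were tested at the right. Transient 2-cell genes (4.11) and cytosolic ribosomal proteins (3.65) lie at the top and oocyte genes (-3.09) at the bottom, beside a dashed line at the median of all tested genes (0.17).

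Genes of the transcription and splicing machinery rose more often than they fell, while 25% of all tested genes rose and 25.3% fell. RNA polymerase subunits, general factors and Mediator subunits rose in 36 of 78 tested cases (46.2%) and fell in 8 (10.3%), with a median of 1.10. Polr3k, a subunit of RNA polymerase III, went from 3296 to 25343 and Supt4a, an elongation factor subunit, from 2431 to 35058. Med30, a Mediator subunit, fell from 8032 to 414 (-4.28 ± 0.40, adjusted p = 2.0e-24 in the authors' deposited table). Spliceosome and SR protein genes rose in 29 of 68 cases (42.6%) and fell in 12 (17.6%), with a median of 0.87. Sf3b6, a U2 snRNP protein, rose by 4.42 ± 0.34, Snrpc, of the U1 snRNP, by 4.70 ± 0.41 and the SR protein gene Srsf10 by 2.83 ± 0.26.

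Protein turnover genes followed the same direction, again beside the 25% of all tested genes that rose and the 25.3% that fell. Of 42 tested proteasome genes 27 rose (64.3%) and 4 fell (9.52%), with a median of 1.65. Psmb5, the subunit with chymotrypsin-like activity, went from 29.3 to 3697, a log2 fold change of 6.98 ± 0.33 with an adjusted p of 2.5e-95 in the authors' deposited table. Psmd14, the lid deubiquitinase, and Psmb1 rose by 4.45 ± 0.29 and 4.75 ± 0.34. The 4 that fell, named after their values were seen, were Psmd10, Psmg1, Psma7 and Psma2, and Psma7 went from 23179 to 7540. Chaperone genes rose in 21 of 46 cases (45.7%) and fell in 4 (8.70%), with a median of 1.02. Those 4 were Pfdn4, Hsp90aa1, Ahsa1 and Pfdn1. Hsp90aa1 went from 68730 to 15990 and Pfdn4, a prefoldin subunit, from 34364 to 1895. Pdia3, a disulfide isomerase of the endoplasmic reticulum, rose by 3.19 ± 0.36. Hspa1a, the inducible Hsp70 gene often cited as an early embryonic transcript, went from 0.192 to 67.1 and has no adjusted p.

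Autophagy and lysosome genes held the smallest adjusted p of the table. Map1lc3b, the gene of LC3B, which is joined to the membrane of forming autophagosomes, went from 2664 to 318190, a log2 fold change of 6.90 ± 0.24 with an adjusted p of 8.3e-172. Its mean count over the 12 C57BL/6J samples was 80950. Gabarapl2, a related protein, rose from 1075 to 35499 and Lamp2, a lysosomal membrane protein, from 158 to 25052. Ctsb, the gene of cathepsin B, rose from 56.8 to 7542. In all 22 of 51 tested members rose (43.1%) and 6 fell (11.8%), beside 25% and 25.3% of all tested genes. The median was 1.39, and the list went from 0.313% to 2.52% of the summed level. Without Map1lc3b, which was 62.5% of the list in the 2-cell embryo, it went from 0.298% to 0.947%. Among those that fell were Atg5 (-1.43 ± 0.27), needed to attach LC3 to membranes, and the proton pump subunits Atp6v1g1 (-3.21 ± 0.40) and Atp6v1h (-1.24 ± 0.15).

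Mitochondrial and metabolic lists are given beside the 25% of all tested genes that rose and the 25.3% that fell. Nuclear genes of oxidative phosphorylation rose in 45 of 76 cases (59.2%) and fell in 9 (11.8%), with a median of 1.55. Atp5g1, of the ATP synthase ring, went from 2045 to 54190. Cox4i1 and Ndufa11 rose by 2.80 ± 0.24 and 3.64 ± 0.34. Glycolysis, pyruvate and TCA genes were more divided (14 of 44 or 31.8% rose, 6 or 13.6% fell, median 0.69). Mdh2, the mitochondrial malate dehydrogenase, rose from 542 to 32149 (5.89 ± 0.34, adjusted p = 4.4e-64 in the authors' deposited table), while Mdh1, its cytosolic counterpart, fell from 4066 to 973. Ldhb, the lactate dehydrogenase of the oocyte, fell from 74644 to 5600, and Mpc2, of the mitochondrial pyruvate carrier, rose from 429 to 12883. Nucleotide synthesis genes rose in 17 of 35 cases (48.6%) and fell in 5 (14.3%), with a median of 1.88. Nme1 and Aprt rose by 4.93 ± 0.44 and 10.07 ± 1.04. Shmt2 and Mthfd2, which make one-carbon units in mitochondria, fell from 674 to 1.33 and from 1496 to 271.

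Glutathione and antioxidant genes rose in 13 of 30 cases (43.3%) and fell in 6 (20%), beside the same 25% and 25.3%, with a median of 1.89. The peroxiredoxins differed in direction, Prdx4 going from 17.9 to 7682 and Prdx1 from 73963 to 26290. Gpx1, the cytosolic glutathione peroxidase, rose by 5.54 ± 0.57. Solute carriers rose in 14 of 29 cases (48.3%) and fell in 2 (6.90%), with a median of 2.25. Slc34a2, a phosphate carrier, rose from under 1 to 695. Slc6a9, the glycine transporter GLYT1, fell from 457 to 2.87, and the other that fell was Slc7a7. Of 30 tested cholesterol and fatty acid genes 9 rose (30%) and 5 fell (16.7%), with a median of 1.46. The desaturase gene Scd1 went from 23.2 to 2734, Hmgcs1 from 5605 to 1269 and Insig2 from 472 to 0.246.

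The lowest fold changes under the same conditions were those of Oas1h, Casp8, Dnajb4 and Clcc1. Oas1h, an oocyte member of the oligoadenylate synthetase family, went from 11367 to 14.3, a log2 fold change of -9.63 ± 0.40 with an adjusted p of 5.3e-122 in the authors' deposited table. Casp8, the initiator caspase of death receptors, went from 7224 to 14.0 (-9.01 ± 0.46, adjusted p = 2.8e-81). Dnajb4, a co-chaperone of Hsp70, fell from 17493 to 39.9 and Clcc1, an endoplasmic reticulum chloride channel, from 5192 to 23.5. The next 8 were Eif4e1b, Pdcd7, the orphan receptor gene Nr2e1, Sec22a of vesicle transport, the inositol phosphate kinase gene Ip6k2, Fra10ac1, the histone gene Hist2h2aa1 and Sytl4, with log2 fold changes from -7.13 to -6.55. Their levels lay between 1292 and 2645 in the G2 zygote and between 12.1 and 25.8 in the 2-cell embryo. Casp8 was also higher in G2 than in G1 zygotes, with levels of 2598 and 7224 (adjusted p = 0.0037 in the authors' deposited table of that step). Oas1h, Dnajb4 and Clcc1 did not pass that earlier test (adjusted p = 0.67, 0.6 and 0.86).

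A further 420 genes averaging at least 100 counts fell to a 2-cell level under 1. The highest G2 levels among them were 1912 for Cphx2, a homeobox gene, 1903 for Lipt1, a lipoate transferase, 1254 for Npffr2, a neuropeptide receptor, and 1216 for Lrrc36. Abcb4, a phospholipid transporter, Zfp750, Raet1d and Hcfc2 followed, between 1124 and 1212. The 2-cell levels of these 8 genes lay between 0.246 and 0.859.

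Oocyte-specific and maternal-effect genes fell in 45 of 63 tested cases (71.4%) and rose in 9 (14.3%), beside 25.3% and 25% of all tested genes. Their median was -3.09, and the list went from 9.95% to 2.35% of the summed level. Kpna7, an importin alpha of oocytes, went from 3076 to 6.16. Bmp15 and Gdf9, growth factors that the oocyte secretes, fell by 4.01 ± 0.22 and 2.92 ± 0.46 on the log2 scale. Gdf9 had fallen before as well, from 25963 in G1 to 2958 in G2 zygotes (adjusted p = 2.8e-09 in the authors' deposited table of G2 against G1), while Bmp15 had not passed that test (19601 in G1 and 26506 in G2 zygotes, adjusted p = 0.27). Ooep and Nlrp5, parts of the subcortical maternal complex, fell by 5.65 and 3.17 on the log2 scale and Tle6 of the same complex by 0.78. Omt2a and Omt2b stayed high in level, from 391510 to 152890 and from 377820 to 105970, although both passed the test. Dppa3, a maternal chromatin protein, also passed the test with a small change, from 434080 to 284900. The members that rose included Zp3, of the egg coat (890.4 to 2876, 1.69 ± 0.29, adjusted p = 5.0e-08), Cd9 (1.93 ± 0.47), Dnmt3l (2.20 ± 0.43) and the remodeler gene Smarca4 (3.44 ± 0.80). Zp2, another coat gene, fell by 1.87, and Zp1 was not called (adjusted p = 0.9).

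Of 64 tested factors that bind or degrade maternal messages 16 rose (25%) and 15 fell (23.4%), near the 25% and 25.3% of all tested genes, with a median of 0.37. Btg4, the adaptor that brings the deadenylase to maternal messages, fell from 92608 to 5023 (-4.20 ± 0.27, adjusted p = 6.4e-51 in the authors' deposited table). Cnot6l, a catalytic deadenylase subunit, fell from 8829 to 948 and Cnot3 from 5615 to 384. Meiotic and M-phase regulators fell in 14 of 57 cases (24.6%) and rose in 8 (14.0%), with a median of -0.12. Pttg1, the securin gene, went from 231440 to 34217, and Ccnb3 from 540.0 to 2.97. Cdk1 rose by 2.55 ± 0.39 and Ube2c, which charges the anaphase-promoting complex, by 2.24 ± 0.32. Sycp3, a synaptonemal complex protein of meiosis, rose from 4208 to 52788 (3.65 ± 0.36, adjusted p = 8.9e-23). Mos, the kinase that holds the egg at metaphase, went from 171 to 44.6 without passing the test (adjusted p = 0.086).

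Cell cycle entry and replication lists did not stand above all tested genes in either direction (25% rose and 25.3% fell there). Of 32 tested G1-S genes 8 rose (25%) and 6 fell (18.8%), with a median of 0.65. Cdkn1a, the inhibitor p21 and a target of p53, rose from 41.3 to 9618 (7.86 ± 0.84, adjusted p = 4.0e-19, from the authors' deposited table), and Ccne1, cyclin E1, from 2.76 to 1612. Of 60 replication genes 14 rose (23.3%) and 9 fell (15.0%), with a median of 0.13. The topoisomerases crossed, Top2b falling from 548 to 1.80 and Top2a rising from 349.9 to 1772, and Rpa3 fell by 3.93.

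Chromatin lists are given beside the 25% of all tested genes that rose and the 25.3% that fell. DNA methylation and histone modifiers rose in 20 of 65 cases (30.8%) and fell in 10 (15.4%), with a median of 0.56. Of the 55 averaging at least 100 counts, 17 rose and 10 fell, where 30.5% and 25.5% of all tested genes did. Tet3, the dioxygenase of the zygote, fell from 2536 to 169, Dnmt1, the maintenance methyltransferase, from 4746 to 679 and Zfp57, which protects imprinted sites, from 6368 to 649. Remodelers and histone chaperones rose in 17 of 58 cases (29.3%) and fell in 14 (24.1%), with a median of 0.09. Of their 50 members from 100 counts up, 15 rose and 12 fell. The H2A.Z genes H2afz and H2afv rose by 4.69 ± 0.36 and 3.20 ± 0.29 in the authors' deposited table. Npm2, the oocyte nucleoplasmin, fell by 2.52 ± 0.28.

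Signalling, cell death and adhesion lists were small, and their counts are given beside the 25% that rose and 25.3% that fell of all tested genes. Genes of the Wnt, Notch, FGF and TGF-beta pathways fell in 16 of 47 cases (34.0%) and rose in 11 (23.4%), with a median of -1.30. Egfr and Smad3 fell from 944 to 2.25 and from 752 to 1.29, and Fgf4 rose from 1.39 to 1170. Bcl2 family and caspase genes rose in 9 of 24 cases (37.5%) and fell in 6 (25%), their median being -0.20, with Bcl2l10, an oocyte survival factor, at 86184 and 1616. Among 26 p53 and DNA damage targets 8 rose (30.8%) and 5 fell (19.2%), their median being 1.15, Tnfrsf10b rising by 5.13 ± 1.01. Of 26 junction, keratin and adhesion genes 7 rose (26.9%) and 6 fell (23.1%), near all tested genes (median -0.14): Epcam rose from 4.83 to 2287, Gja1, connexin 43, from under 1 to 783, and Rdx, radixin, fell from 26993 to 1901.

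Some abundant genes hardly moved, and here the interval bounds the change. Of genes averaging at least 1000 counts, the narrowest intervals around 0 were those of Med10, Larp7, Dkc1, Zmat2, Pcna and Crnkl1. Med10, a Mediator subunit, went from 27815 to 26894, with a 95% interval of the log2 fold change from -0.27 to 0.17 in the authors' deposited table (a normal interval from the SE). Pcna, the replication clamp, went from 7406 to 7391, with an interval from -0.51 to 0.51. The bound farthest from 0 among the 6 was that of Crnkl1, a splicing factor, with an interval from -0.53 to 0.26, so a larger fall or rise lay outside the interval of each of these genes.

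Genes with a predicted or clone name rose and fell in like numbers: of 682 tested averaging at least 100 counts, 222 rose (32.6%) and 227 fell (33.3%), with a median of 0.12. Of all tested genes averaging at least 100 counts, 30.5% rose and 25.5% fell, so the predicted genes fell more often. The highest were Gm11517 (24.4 to 21240), Gm9 (32.6 to 27277), B020004C17Rik (109 to 74677) and AF067063 (20.5 to 9499). AU022751 fell from 8330 to 26.5 and 4930451I11Rik from 1666 to 15.4. Gm8898 and Gm14431 carry the same values (8005 to 37.6) and were among 30 tested genes whose values were identical to another gene's, which cannot be counted apart.

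Large changes of C57BL/6J formed a second group by size, in both directions. Of genes averaging at least 100 counts, 134 fell by 5 to 6 in the authors' deposited table, 71 by 6 to 7, 110 by 7 to 8, 152 by 8 to 9 and 169 by 9 to 10 on the log2 scale, while the risers of these sizes numbered 200, 150, 61, 61 and 83, with 95 more at 10 to 11. The same step was measured in B6CASTF1 embryos, a hybrid of C57BL/6J with the CAST strain, in 2 samples of 2-cell embryos and 3 of G2 zygotes that share no sample with C57BL/6J. In the authors' deposited table of that hybrid 5346 of 16128 tested genes rose (33.1%) and 4321 fell (26.8%). There the numbers of fallers of the same sizes were 185, 72, 42, 13 and 2, and those of risers 280, 207, 138, 89 and 66, with 87 at 10 to 11. In all 436 of 8300 C57BL/6J genes (5.25%) and 19 of 9480 hybrid genes (0.200%) fell by at least 8, while risers of that size numbered 337 (4.06%) and 329 (3.47%). The 419 genes that fell to a level under 1 in C57BL/6J and were tested in the hybrid had a median log2 fold change of -3.08 in the hybrid, and 342 of them (81.6%) fell there. Genes that averaged at least 100 counts but had a level under 1 numbered 181 in MII eggs, 303 in G1 zygotes, 173 in G2 zygotes and 426 in 2-cell embryos of C57BL/6J. Depth per library is not given in the tables used here, and its part in this difference was not tested.

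Of the 12573 genes that both strains tested, 2607 rose in each, which was 82.6% of the C57BL/6J risers and 59.2% of the hybrid risers, and 2316 fell in both (71.9% and 58.2%). The calls were opposite for 40 C57BL/6J risers and 84 fallers. Across the 7780 genes averaging at least 100 counts in both strains, the fold changes had a Pearson r of 0.82 and a Spearman coefficient of 0.86, a description across genes that share libraries and are not replicates. The median SE over these 7780 genes was 0.84 in C57BL/6J and 0.35 in B6CASTF1. The part of this gap in precision in the shares of common calls was not tested. A direct test of the difference, the fold change in C57BL/6J minus that in B6CASTF1 over the combined SE, called 633 genes higher in C57BL/6J (5.03%) and 1457 lower (11.6%) at an adjusted p under 0.05. Strain, sample number and series of libraries differ together between these tables and cannot be told apart. Of the 12 named genes with the highest fold changes the difference was called for 0, with 0.62 ± 0.72 for Obox6 (adjusted p = 0.64), and of the 12 with the lowest it was called for 7, all lower in C57BL/6J. These 7 were Oas1h, Casp8, Dnajb4, Clcc1, Pdcd7, Ip6k2 and Fra10ac1. The 12 lowest were picked by their C57BL/6J fold change, which itself favours a difference in that direction. The shared direction is therefore not a separate result. Oas1h had log2 fold changes of -9.63 in C57BL/6J and -4.89 in the hybrid (adjusted p of the difference 5.6e-24), Clcc1 -7.78 and -2.78 (1.1e-15) and Dnajb4 -8.78 and -5.90 (6.9e-09). Among genes described above the difference was also called for Rplp0 (-1.29 ± 0.26), Dppa5a (-1.95 ± 0.39), Sp110 (-1.48 ± 0.28), Obox7 (-3.00 ± 0.32) and Psmb5 (2.55 ± 0.42). It was not called for Map1lc3b (0.14 ± 0.29), Rpl41 (-0.27 ± 0.45) or Btg4 (0.52 ± 0.35).

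**Figure D4:**
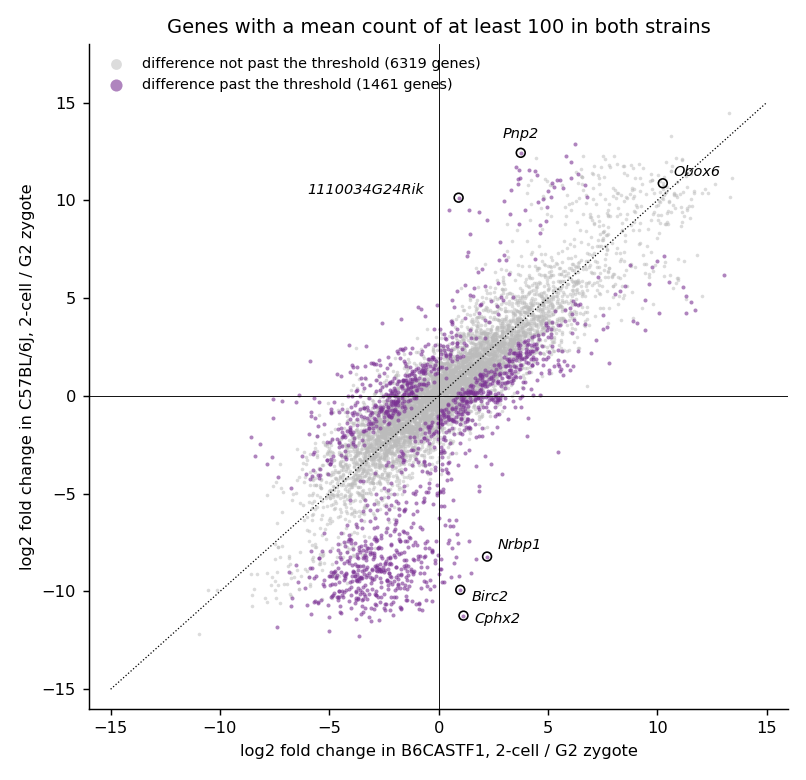
The log2 fold change from G2 zygote to 2-cell embryo in C57BL/6J (vertical axis) is plotted against that in B6CASTF1 (horizontal axis) for the 7780 genes averaging at least 100 counts in both strains, with the 1461 genes whose difference passed the threshold in purple and the dotted line marking equal change. A cloud of genes lies near -9 in C57BL/6J and between about -5 and 0 in B6CASTF1, below the line.

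Promoters were compared by letters alone. Of the genes averaging at least 100 counts, 80.7% of those that rose, 81.3% of those that fell and 81.2% of those not called matched a RefSeq promoter (250 bases before to 50 after the start, GRCm38.p6), some with more than 1. The Obox and Otx motif GGATTAA, on either strand, was in 81 of 2468 promoters of genes that rose (3.28%), 33 of 2226 of genes that fell (1.48%), 51 of 3791 of genes not called (1.35%) and 2.23% of all 32851 promoters. The ETS motif CCGGAAGT was in 10.8%, 5.66%, 9.26% and 3.89%, and the E-box CACGTG in 12.2%, 7.41%, 10.6% and 7.15%. The motif TCAAGGNCA of Nr5a2 and Esrrb was in 1.2%, 1.1%, 0.79% and 1.6%. The GC box GGGCGG was in 60.5%, 52.7%, 62.2% and 35.7%, and the Znf143 motif ACTACAA in 4.78%, 4.76%, 4.01% and 3.24%. The Dux motif was in none of the promoters of genes that rose or fell, 1 of 3791 of genes not called and 11 of all 32851 (0.0335%). It is too rare for its absence to be read. A match is a description of the letters only. A CpG ratio (observed over expected) of at least 0.6 was found in 73.3% of promoters of genes that rose, 57.2% of genes that fell and 72.5% of genes not called, against 35.8% of all promoters, so base composition differs between these sets along with the motifs. ETS matches were in promoters of ribosome biogenesis factors (23 of 80, or 28.8%) and proteasome genes (11 of 40, or 27.5%), in 0 of the 73 promoters of oocyte genes, 12.3% of which reached that CpG ratio, and in 8.03% of promoters of genes that rose by at least 5, below the 9.26% of genes not called. For transient 2-cell genes (0 of 31 promoters) fewer than 80% of members matched a promoter, so no share is read from them.

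Upstream sequences of 2 genes that rose are shown for the ETS motif, written as above. Rpl41 (chr10:128549169-128549418, minus strand) has the match CCGGAAGT starting 56 bases before the start, beside 1 GC box on the reverse strand (GGGCGG) and 1 Znf143 motif. Mrpl43 (chr19:45006443-45006692, minus strand) has it starting 12 bases before the start, with 1 GC box farther upstream.
Rpl41: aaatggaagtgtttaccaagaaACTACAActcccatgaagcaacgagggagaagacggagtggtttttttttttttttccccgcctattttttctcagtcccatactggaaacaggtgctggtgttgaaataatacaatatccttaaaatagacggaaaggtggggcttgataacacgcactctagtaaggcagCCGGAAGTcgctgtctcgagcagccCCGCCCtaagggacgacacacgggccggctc
Mrpl43: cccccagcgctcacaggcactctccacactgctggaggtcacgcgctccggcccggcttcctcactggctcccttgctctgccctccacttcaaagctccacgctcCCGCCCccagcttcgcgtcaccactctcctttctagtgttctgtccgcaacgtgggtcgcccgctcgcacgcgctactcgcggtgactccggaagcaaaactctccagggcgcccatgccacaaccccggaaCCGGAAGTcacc

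Genes that rose had shorter transcripts by the median. Lengths are those of the protein-coding isoform with the longest coding sequence per gene (GENCODE M21), ties going to the longer transcript. Such an isoform was available for 91.2% of those that rose, 90.4% of those that fell and 92.7% of those not called. The median transcript length was 2308 nt, 2912 nt and 3199 nt, and the median coding length 1019 nt, 1404 nt and 1509 nt. With genes in 5 groups of equal size by length, 45.9% of the 1522 shortest (198 to 1532 nt) rose, against 21.5% of the 1521 longest. The share that fell ranged from 22.1% to 27.2%. The 80 ribosomal protein genes with such a transcript had a median log2 fold change of 3.68, while the 612 other genes within the middle range of their lengths (649 to 1121 nt) had a median of 1.06 and 44.8% of them rose. Length and fold change were weakly related across genes (Spearman coefficient -0.14 over 7605 genes, as a description).

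**Figure D5:**
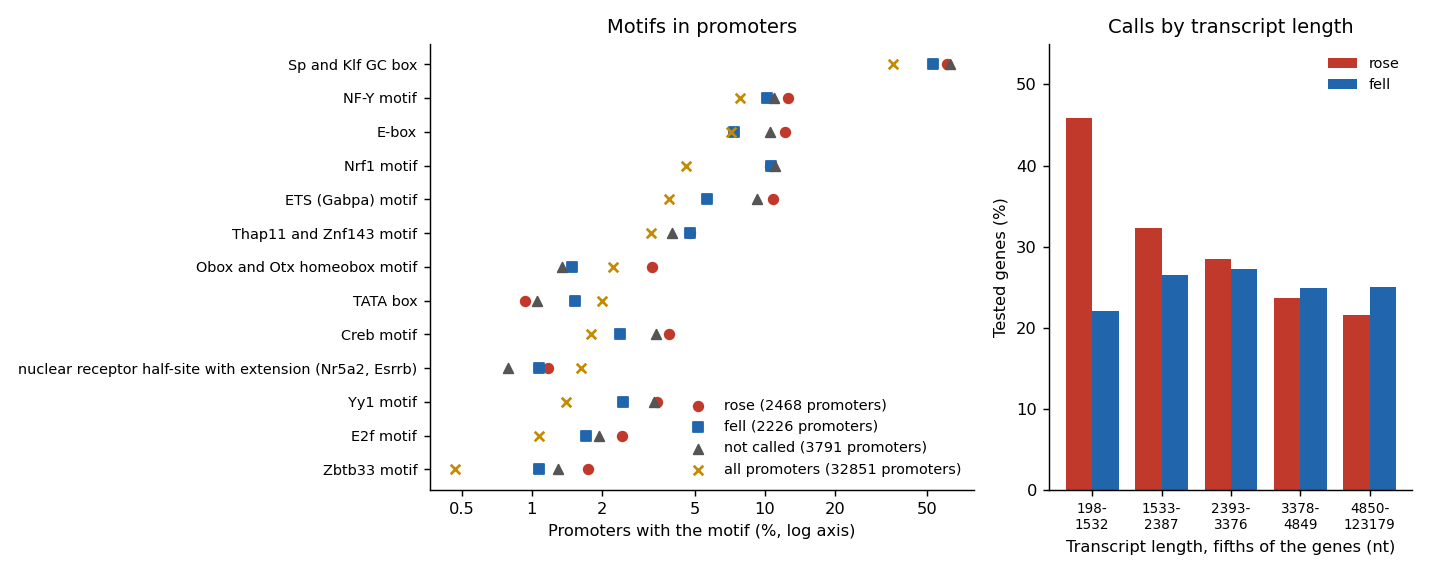
Left: the percentage of promoters with each motif (log axis) in genes that rose, fell or were not called and in all promoters. Right: the percentage of tested genes that rose and fell in 5 groups by transcript length, where risers go from 45.9% in the shortest group to 21.5% in the longest.

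The share of called genes varied between chromosomes, which was not tested. RefSeq placed 12777 of the tested symbols (99.5%). Among genes averaging at least 100 counts, 39.9% of 306 on chromosome X rose and 20.6% fell, 37.2% of 613 on chromosome 11 rose and 18.9% fell, and 23.6% of 406 on chromosome 6 rose and 35.5% fell. Runs of at least 3 neighbouring tested genes that all changed by at least 3 on the log2 scale in the same direction numbered 74 upward and 103 downward. Of all 12839 tested genes 2117 rose and 2423 fell by that much. Runs can form by order alone at such shares, and their number was not tested. The run with the most genes held 10 Fbxw genes, F-box proteins of oocytes, on chr9:109270789-109790660, which fell with a median of -4.39. A run of 9 on chr3:93555117-94332540 rose with a median of 8.37 and held Tdpoz1, Tdpoz2, Tdpoz4 and Tdpoz5 together with S100a10 and Them4. The Tcl1 cluster, 6 genes on chr12:105147019-105222737, fell with a median of -3.72. On chromosome X 5 genes from Ebp to Fthl17 (chrX:8185329-9034333) rose with a median of 10.31. Tandem copies share sequence, so members of a run are not independent measurements.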

How the data were processed

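RNA of pooled eggs and embryos was read by Smart-seq2. The submitters' processing notes name bcl2fastq, kallisto, TopHat, Picard, DESeq2 (1.18.1 per the file headers and names) and the mm10 build, with no role or order. The deposited tables, 5 in number, compare groups of samples and hold 0 columns of values per sample, so depth is unknown and no fit was repeated.

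Per the file headers, the authors give for each gene a mean normalized count (all samples of the strain), a log2 fold change with its SE (unshrunken, and a shrunken one), a score (the Wald statistic), its p-value and the adjusted p-value. The main result is the authors' DESeq2 test, adjusted p under 0.05. Approximate levels per stage were computed from the mean count and the authors' log2 fold changes over the 4 C57BL/6J stages. These levels have no SD and are not per length. Where genes are ranked or summed by level, the order is one of normalized counts and not of transcript numbers. Sums of levels are shares of normalized counts, in which abundant genes weigh most. Levels under 1 were treated as near 0, with no fold given. The difference between strains was tested by dividing it by the square root of the summed squared SEs (normal p). Benjamini-Hochberg adjustment was over genes tested in both strains. Simulated data with normal noise of the given SEs checked the calculation only, not whether SEs from so few samples hold. Promoters (RefSeq) and transcripts (GENCODE M21) were matched by symbol. Scripts ran under Python 3.11.15 with pandas 2.3.3, numpy 2.4.6, matplotlib 3.10.9 and scipy 1.17.1.

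Named genes were the 12 highest and 12 lowest fold changes with levels of at least 10 in both stages, 8 per direction near 0 in 1 stage, the 3 members of each of 33 lists with the smallest p, 13 single genes, the 6 narrowest intervals among genes averaging at least 1000 counts, the 5 largest strain differences and 4 predicted genes per direction. Some named genes are left out for room, and further list members were named after their values were seen. Members, lists and rules were chosen with earlier results of these data known. Lists are set beside all tested genes, though most members of most lists averaged at least 100 counts, where 30.5% rose and 25.5% fell.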

Additional observations from a re-analysis of the deposited data

Results flagged for a closer look

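The change from G2 zygote to 2-cell embryo differed between C57BL/6J and B6CASTF1 by the test of the difference itself for the 10 genes below, the 5 largest differences (C57BL/6J minus B6CASTF1, log2 scale) in each direction among genes averaging at least 100 counts in both strains. C57BL/6J was higher for 1110034G24Rik by 9.22 (adjusted p = 8.0e-05), for Arrdc5 by 9.04 (8.6e-07), for Pnp2, a purine nucleoside phosphorylase, by 8.68 (0.00033), for Fam207a by 8.16 (0.0029) and for Ptges2, a prostaglandin synthase, by 8.10 (0.00012). For each of these 5 genes the G2 zygote level was under 1 in C57BL/6J, while the G1 zygote level was 149, 132, 67.8, 7.30 and 46.1. Pnp2 and Fam207a rose in B6CASTF1 as well, by 3.76 and 3.56 in the authors' deposited table, and the other 3 were not called there.

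C57BL/6J was lower for 5 others, with differences of -12.37 for Cphx2, a homeobox gene (adjusted p = 0.00068), -10.91 for Birc2, an inhibitor of apoptosis (2.7e-05), -10.57 for Gabrp, a GABA receptor subunit (2.6e-07), -10.43 for Nrbp1 (2.6e-13) and -10.17 for Zfp414 (2.1e-11). The 2-cell level of these 5 genes was under 1 in C57BL/6J, after 1912, 238, 133, 264 and 291 in the G2 zygote. Nrbp1 rose in B6CASTF1, by 2.22 in the authors' deposited table, and the other 4 were not called there. In all 10 genes the level was near 0 in 1 of the C57BL/6J stages, so the size of the difference depends on the fit. Strain and series of libraries cannot be told apart.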

How the results depend on the processing

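No paired analysis was possible because the deposited tables hold no values per sample, and leaving out each replicate was not run for the same reason. Bonferroni adjustment left 1185 genes that rose and 1409 that fell of all tested, and 1076 and 1108 from 100 counts up. An SE raised 1.5 times left 1780 and 1998, and 1573 risers from 100 counts up. Adjustment over genes averaging at least 100 counts alone gave 2143 fallers, since fewer genes are tested. The difference between strains was called for 322 genes higher and 965 lower in C57BL/6J at an adjusted p under 0.01, and for 93 and 397 with the SE raised 1.5 times. With all called genes in place of those averaging at least 100 counts, a CpG ratio of at least 0.6 was in 70.0% of promoters of genes that rose, 53.4% of genes that fell and 64.3% of genes not called, and the ETS motif in 7.80% of the last. The cause of these shifts was not tested. Of 51 values of the main counts and promoter shares under alternatives, 35 stayed within the limits set. Recentring on the median of genes averaging at least 100 counts (a shift of 0.23) gave 2935 risers and 3495 fallers, and equal summed levels (0.13) gave 3068 and 3376. From 100 counts up, where 2531 rose and 2116 fell, recentring on the median gave 2303 and 2314, and equal summed levels 2415 and 2218. The excess of risers in that set therefore depends on the centring. Of 1633 values of 166 named genes under alternatives, 1624 kept direction and call, 8 lost the call (6 under Bonferroni, 2 with the raised SE), 1 gained it and 0 reversed. Many of these values could not lose a call. The settings on size of change, a mean count of at least 10, predicted names and shrunken fold change kept the same adjusted p. Genes outside a filter were left out. Most named genes were also picked for large changes or small p, so this stability is no separate support. Counts of list members moved by over 1.5 times in 112 of 594 cases and list medians moved in 23 of 330. A mean count of at least 10 says nothing of genes already at 100 or more. The median SE of 2.19 at mean counts of 10 to 100 limits what can be called there.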
